A study of Arabidopsis thaliana with 6 samples.

Results

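The genes described here encode proteins of the large (60S) subunit of the cytosolic ribosome in Arabidopsis thaliana. A fixed list of 60 loci, which encode 27 ribosomal proteins from RPL4 to RPL30 and leave out the P-stalk proteins, was matched to the probe sets of an expression array that holds 22810 probe sets. The annotation names 13333 genes by a probe set of their own. Of the 60 loci, 42 had a probe set annotated to that locus alone, 5 were represented only by probe sets that the annotation gives to 2 loci, and 13 had no listed probe set and were not analysed here. The study set 3 arrays of wild type (WT) against 3 arrays of 35S:miR396, a genotype that overexpresses the microRNA miR396 from the constitutive 35S promoter of a plant virus. All samples were microdissected meristems from roots of untreated seedlings at 7 days after sowing, grown upright on sucrose medium with 16 hours of light at 21 °C. Within a group the 3 samples are labelled as biological replicates; the number of plants per sample and of transgenic lines is not stated, so the p-values reflect only the spread among these 6 samples.

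The large subunit joins amino acids into protein, and its ribosomal proteins fold and clasp the large ribosomal RNA. In plants nearly every ribosomal protein is encoded by a small family of paralogous genes. Dividing cells such as those of the root meristem make many ribosomes and keep many of these transcripts at high levels. The microRNA miR396 is known for directing cleavage of transcripts of growth-regulating factors, transcription factors that promote cell proliferation. In plant promoters of ribosomal protein genes the telo-box and site II elements are known to link expression to proliferation.

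The large-subunit transcripts gave some of the brightest signals of the array and differed little between the genotypes. Each array was deposited as log2 values made with GCRMA. Probe sets that reached a value of 4 in 3 or more arrays were tested with limma and called at a Benjamini-Hochberg adjusted p under 0.05 over all 11364 tested probe sets. Of the 42 genes with a probe set of their own, 40 passed the filter. Their mean values over the 6 arrays ran from 10.65 to 13.87 with a median of 12.74, on a scale whose highest value was 14.28. Every one of these 40 means lay at or above the 95th percentile of the tested probe sets. Whether signals so near the top of the scale were compressed was not tested. Of the 40 tested genes 6 rose in 35S:miR396, 1 fell and 33 did not pass the test. The share called was 17.5%, beside 25.0% of all tested probe sets, and the called share of all probe sets was 12.7% for higher and 12.3% for lower. In this fit the share of members called in either direction does not exceed that of all tested probe sets. By direction, the 6 of 40 called higher lay slightly above the share of all probe sets, and the 1 of 40 called lower lay below it. No test compared these shares, and the count is not a result about these genes as a group.

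The sizes of the differences were small. The median absolute log2 fold change was 0.07 in the 40 tested genes and 0.21 over all tested probe sets. In other ribosomal protein genes this median was also small, at 0.10 for 23 further large-subunit genes and 0.10 for 41 small-subunit genes. Of the 40 tested genes 25 (62.5%) had an absolute value under 0.1, beside 25.9% of all tested probe sets. For 34 of the 40 the 95% interval of the fold change stayed within 1.2-fold in either direction. These intervals come from a fit in which limma's variance prior follows brightness (a variance trend), and no count was made without it. The spread was small as well, with a median within-group SD of 0.046 log2 units in these genes and 0.135 over all tested probe sets. Most of those probe sets were dimmer, since only 569 of the 11364 had a mean level at least that of the dimmest of the 40 genes. No comparison was made with equally bright probe sets. Whether these genes differed or spread less than others of their brightness was thus not tested. The median signed log2 fold change was 0.04, beside -0.01 over all tested probe sets. A total of 30 of the 40 genes (75.0%) had a positive value as deposited, beside 47.9% of all tested probe sets. After a further quantile normalization 20 of 40 were positive. The median moved from 0.04 to 0.00 in these genes and from -0.01 to -0.04 over all tested probe sets. With each array instead centred on its median 30 of 40 stayed positive, with a median of 0.03 beside -0.02 over all tested probe sets. The signs thus depend on which scaling is used, and no shared direction of the group can be read from them. The median deviation of the 40 genes from their wild-type means was 0.05, 0.01 and 0.05 in replicates 1, 2 and 3 of 35S:miR396 and ran from -0.02 to 0.03 in the wild-type arrays. Replicate 2 of 35S:miR396 correlated more closely with the wild-type arrays (Pearson r 0.973 to 0.976 across tested probe sets) than replicates 1 and 3 did (0.944 to 0.965). Without that array 8 members rose and none fell by limma's test (2 lower at an unadjusted p under 0.05), beside 33.6% of all tested probe sets called, 17.1% higher and 16.5% lower. Counts at an unadjusted p, here and below, have no share over all probe sets beside them and are not a result about the genes. At 17 of the 40 genes (42.5%) the wild-type and transgenic values were fully separate, beside 45.7% of all tested probe sets.

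**Figure D1:**
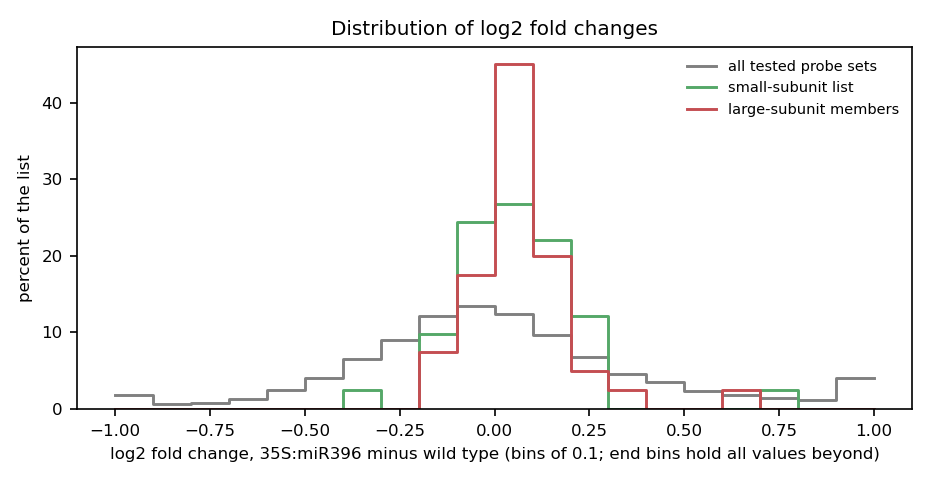
Distribution of log2 fold changes (35S:miR396 minus wild type, x axis, bins of 0.1) as the percent of each list (y axis) for the 40 tested large-subunit genes, 41 small-subunit genes and all 11364 tested probe sets; the end bins hold all values beyond. The bin from 0 to 0.1 holds 45.0% of the large-subunit genes, and 1 gene stands apart between 0.6 and 0.7.

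**Figure D2:**
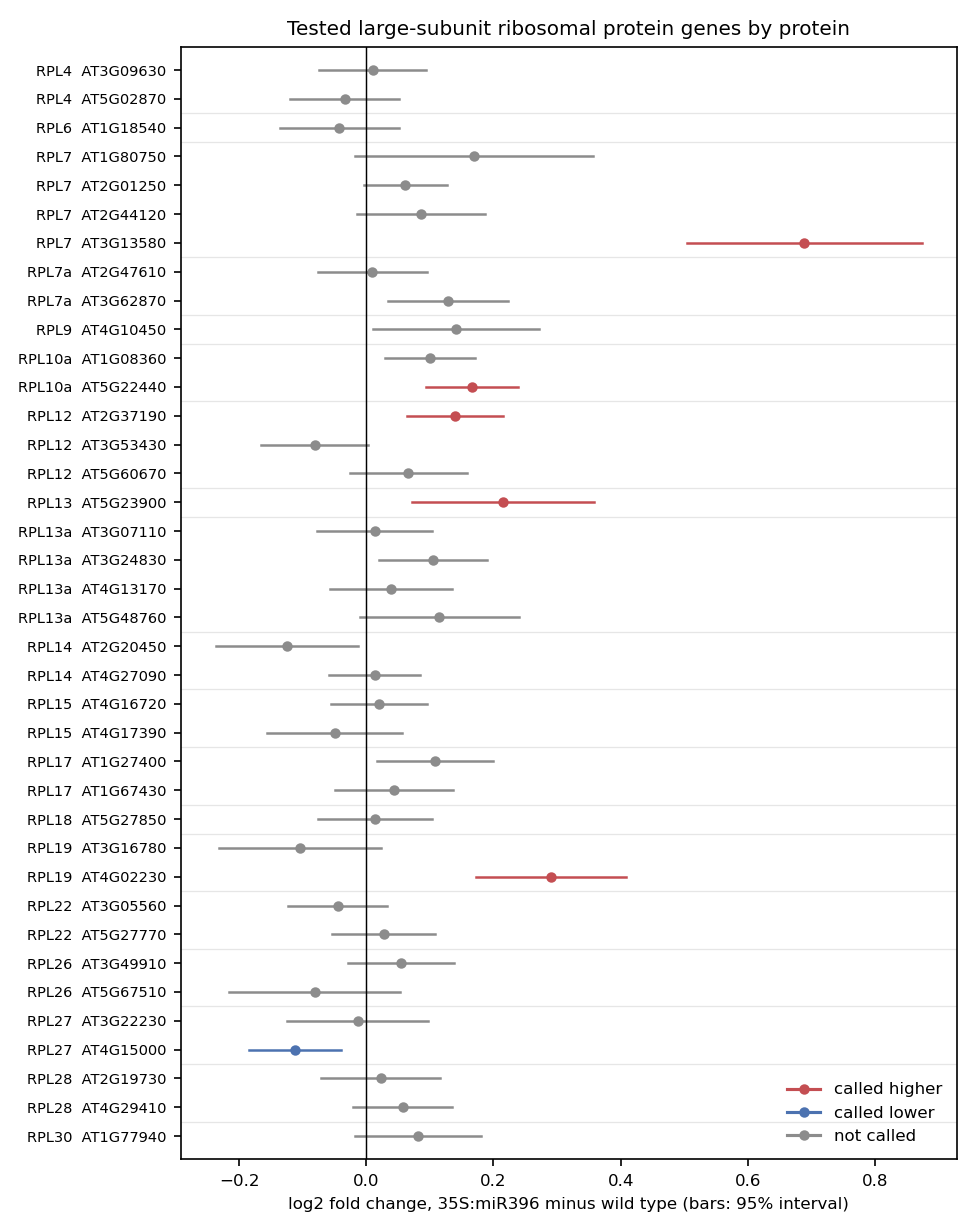
Log2 fold change of 38 tested large-subunit genes (x axis; point with 95% interval from limma), ordered by protein (y axis). The 5 drawn genes called higher and the 1 called lower belong to 6 different proteins, and the RPL7 gene AT3G13580 lies far to the right of all others.

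Among the called genes, AT3G13580 differed most. It is 1 of 4 members for RPL7, the eukaryotic relative of bacterial protein L30. In replicates 1, 2 and 3 its log2 value was 11.49, 11.45 and 11.56 for wild type against 12.37, 12.07 and 12.13 for 35S:miR396. All 3 values of 35S:miR396 lay above all 3 of wild type, with replicate 1 the highest. It rose 1.61-fold (log2 fold change 0.69 ± 0.08, SE, n = 3 per group; adjusted p = 0.00274).

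The 3 other RPL7 genes did not pass the test. AT1G80750 had values of 10.43, 10.57 and 10.70 in wild type and 10.71, 10.83 and 10.66 in 35S:miR396, and the groups overlapped (0.17 ± 0.08, SE; adjusted p = 0.154). AT2G44120 had 12.78, 12.64 and 12.68 in wild type and 12.81, 12.77 and 12.78 in 35S:miR396 (0.09 ± 0.04, SE; adjusted p = 0.176), and here too the groups overlapped. The fourth, AT2G01250, had 12.97, 12.94 and 12.95 against 13.03, 13.02 and 12.99 (0.06 ± 0.03, SE; adjusted p = 0.142). Its groups did not overlap, although the difference is small.

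AT4G02230 encodes RPL19, which forms a bridge to the small subunit. It had 11.62, 11.60 and 11.65 in wild type and 11.98, 11.82 and 11.94 in 35S:miR396. This gene rose 1.22-fold (0.29 ± 0.05, SE; adjusted p = 0.00961), with replicate 2 of 35S:miR396 nearest to wild type. The other tested RPL19 gene, AT3G16780, had 12.31, 12.27 and 12.45 against 12.20, 12.29 and 12.23 (-0.10 ± 0.05, SE; adjusted p = 0.192). The 2 groups of AT3G16780 overlapped, and of these paralogues only AT4G02230 passed the test.

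A further 3 genes rose by less. AT5G23900 (RPL13, a protein with no bacterial counterpart) had 12.01, 11.95 and 12.06 in wild type and 12.33, 12.11 and 12.22 in 35S:miR396, a rise of 0.22 ± 0.06 (log2, SE; adjusted p = 0.0415). AT5G22440 (RPL10a, the protein of the mobile L1 stalk that handles departing transfer RNA) had 12.47, 12.42 and 12.45 in wild type and 12.61, 12.62 and 12.61 in 35S:miR396, a rise of 0.17 ± 0.03 (SE; adjusted p = 0.012). AT2G37190 (RPL12, at the base of the P-stalk, where translation factors bind) had 12.83, 12.81 and 12.84 against 13.01, 12.94 and 12.95, a rise of 0.14 ± 0.03 (SE; adjusted p = 0.0227). In each of these 3 genes the groups were separate. The 1 gene that fell was AT4G15000, which encodes RPL27, with 12.68, 12.65 and 12.70 in the wild-type arrays against 12.55, 12.57 and 12.57 in 35S:miR396. It was 1.08-fold lower (log2 fold change -0.11 ± 0.03, SE; adjusted p = 0.0375), again without overlap.

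**Figure D3:**
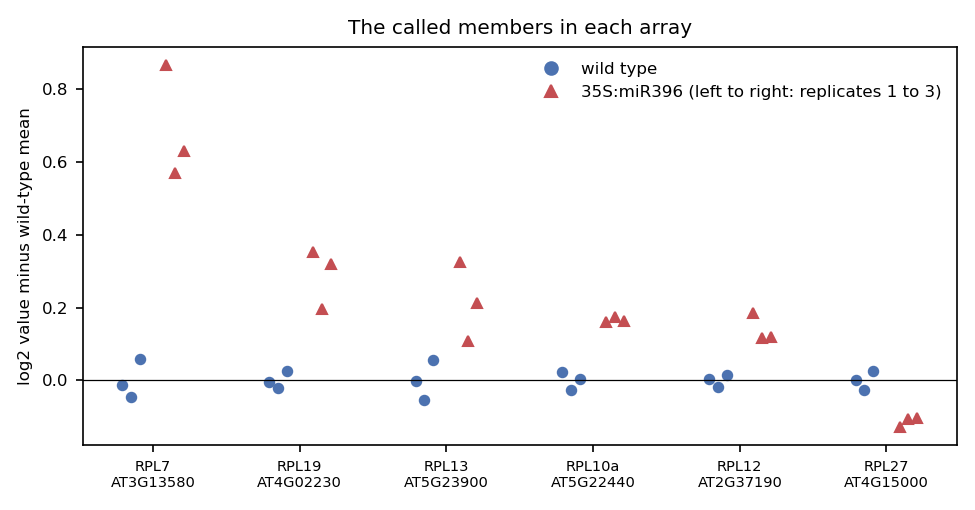
Log2 value of each array minus the wild-type mean (y axis) for 6 called large-subunit genes (x axis); circles are the 3 wild-type arrays and triangles the 3 arrays of 35S:miR396. In all 6 genes the groups are separate, and in AT3G13580 replicate 1 of 35S:miR396 stands highest.

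Not all of these calls were equally firm. AT3G13580 was called in all 13 other fits, among them every fit with 1 array left out, where it ran from 0.60 to 0.75. AT4G02230 lost its call only when dim probe sets were not filtered out (adjusted p = 0.0523). The call of AT5G22440 was lost without replicate 2 of wild type (0.15, adjusted p = 0.0527) and without a variance trend (adjusted p = 0.107). AT5G23900 and AT2G37190 lost theirs in the 5 fits that each left out 1 array except replicate 2 of 35S:miR396, at log2 fold changes of 0.16 to 0.24 for AT5G23900 and 0.12 to 0.15 for AT2G37190. AT4G15000 lost its call in each of the 6 fits that left out 1 array, at values from -0.13 to -0.10 and adjusted p-values of up to 0.103. The calls of AT5G23900, AT2G37190 and AT4G15000 were also lost without the filter and without the variance trend. Some genes that did not pass stood close to the cut. AT3G62870 (RPL7a, log2 fold change 0.13 ± 0.04, SE, limma adjusted p = 0.055) had separate groups. That gene was called in 5 of the 13 other fits, and AT4G15000 in 4. Over all probe sets without the filter limma called 3 members, all of them higher, beside 4.14% of all probe sets called and 2.04% called higher. Without replicate 2 of wild type 3 members rose and none fell by limma (3 lower at an unadjusted p under 0.05), beside 9.26% called, 5.13% higher and 4.13% lower. Without the variance trend 3 rose and none fell by limma (0 lower at an unadjusted p under 0.05), beside 22.4% called, 11.4% higher and 10.9% lower. With array weights 13 rose and 2 fell, beside 41.8% called, 20.6% higher and 21.2% lower.

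By place in the subunit, as known from structures of eukaryotic ribosomes, the called genes were spread out. The exit tunnel, through which the new protein leaves, is lined or rimmed by RPL4, RPL17 and RPL26, and none of its 6 tested genes passed limma's test (1 at an unadjusted p under 0.05), with log2 fold changes from -0.08 to 0.11. At the subunit interface (RPL19 and RPL30 among tested genes) 1 of 3 rose. Near the sites where factors bind and peptide bonds form (RPL9 and RPL12 among tested genes) 1 of 4 rose, with a range from -0.08 to 0.14. Both member genes of RPL10a, in the L1 stalk, were tested, and 1 rose. The other member, AT1G08360, lay just short of the cut at 0.10 ± 0.03 (SE, limma adjusted p = 0.0503), with separate groups. A further RPL10a gene outside the member list, AT2G27530, stood at 0.075 (limma adjusted p = 0.19), and its groups overlapped. Of 25 tested genes for proteins at other positions 3 rose, 1 fell and 21 did not pass. These counts cover the members only and are too small to compare the places with each other.

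Genes that did not pass the test included every tested gene of 13 proteins. RPL13a, which in mammals is also known to act outside the ribosome, had 4 tested genes with log2 fold changes from 0.01 to 0.11. Both genes of RPL15 lay within 0.05 of no change, at 0.02 for AT4G16720 and -0.05 for AT4G17390. The 2 tested genes of RPL22 stood at -0.04 and 0.03, those of RPL28 at 0.02 and 0.06, and those of RPL4 at 0.01 and -0.03. The lowest value of all tested members was -0.12, at AT2G20450 (RPL14), where the groups were separate but the adjusted p was 0.0939. Over the 33 genes that did not pass, log2 fold changes ran from -0.12 to 0.17 and their 95% intervals from -0.24 to 0.36. Under the fit with a variance trend, these intervals bound the size of a difference these 6 arrays leave possible.

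Paralogues of the same protein could be compared in their response but not in their level, since the brightness of a probe set depends on its own probes. Pairs were formed among member genes only, 27 in all, from the 15 proteins with at least 2 tested members. The log2 ratio of the paralogues was taken in each array. It was compared between the groups with an exact two-sided permutation test. With 3 arrays against 3 no p can be under 0.1, and the smallest Benjamini-Hochberg adjusted p over the 27 pairs was 0.245, so no pair passes a test and the sizes below are descriptive. The groups of log ratios were separate in 11 of the 27 pairs (40.7%), beside 45.7% of single tested probe sets. In no pair were both genes called, and in 9 pairs 1 of the genes was. The median difference between paralogues was 0.09 log2 units. Over the tested members the Spearman correlation of mean level with log2 fold change was -0.23, and -0.19 without AT3G13580. Whether the 2 probe sets of a pair respond alike, or are compressed alike near the top of the scale, was not tested.

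Large differences were found in pairs with AT3G13580 or AT4G02230. AT3G13580 over AT2G01250 (both RPL7) had log2 ratios of -1.48, -1.49 and -1.39 in wild type and -0.67, -0.95 and -0.86 in 35S:miR396, a difference of 0.63 (exact permutation p = 0.1). Over AT2G44120 the difference was 0.60 and over AT1G80750 it was 0.52. In each of these 3 pairs the groups of log ratios were separate. All 3 share the values of AT3G13580, the member with the largest fold change, and are not independent of each other. AT4G02230 over AT3G16780 (RPL19) went from -0.72 ± 0.07 to -0.33 ± 0.13 (SD, n = 3), a difference of 0.39. With any 1 array left out these 4 differences stayed between 0.34 and 0.69. For AT2G37190 over AT3G53430 (RPL12) the difference was 0.22, and 21 pairs were below 0.2.

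At the other end, 2 pairs differed least. AT5G48760 over AT3G24830 (RPL13a) had log2 ratios of -1.52, -1.50 and -1.53 in wild type and -1.47, -1.58 and -1.46 in 35S:miR396, a difference of 0.01. Values of AT5G48760 itself were 11.19, 11.16 and 11.21 against 11.37, 11.21 and 11.32, and those of AT3G24830 were 12.71, 12.65 and 12.74 against 12.84, 12.79 and 12.78; neither passed the test (adjusted p = 0.15 and 0.0731). AT2G44120 over AT2G01250 (RPL7) differed by 0.02. In both pairs the groups of log ratios overlapped.

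**Figure D4:**
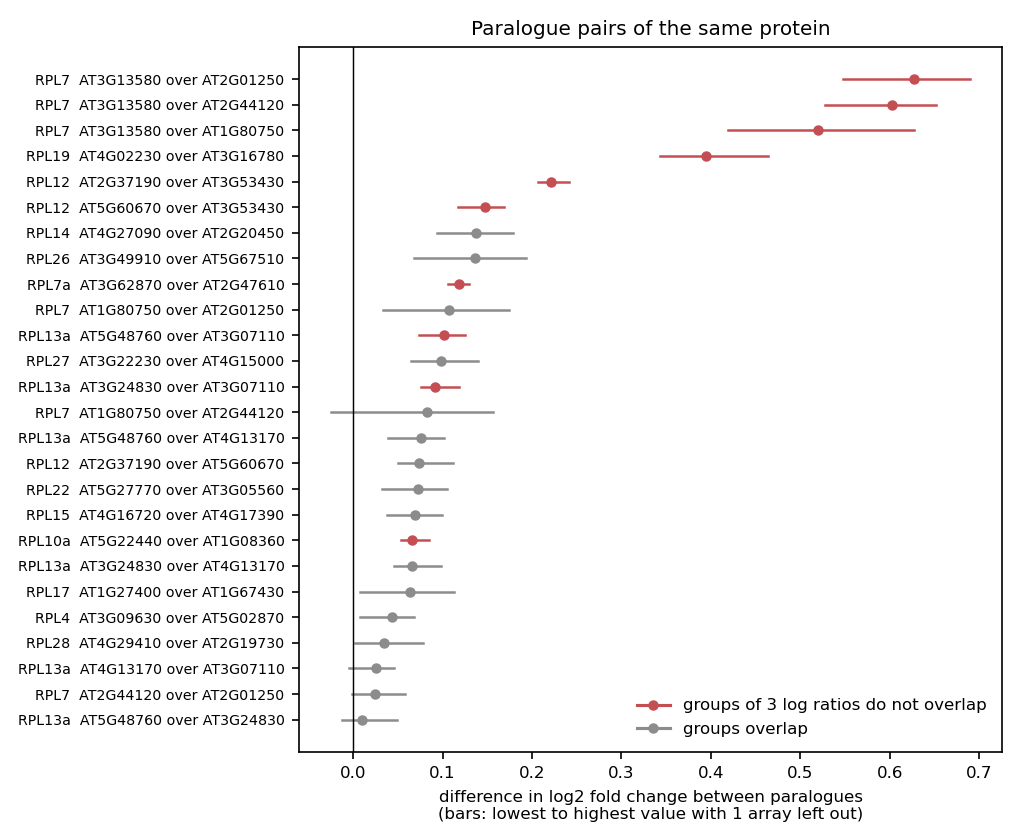
Difference in log2 fold change (35S:miR396 minus wild type) between the 2 paralogues of each of 26 pairs (x axis), the gene with the higher fold change first (y axis); bars run from the lowest to the highest value with 1 array left out. Since the higher gene comes first, all points lie above 0; the RPL7 and RPL19 pairs with a called gene reach 0.39 to 0.63.

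**Figure D5:**
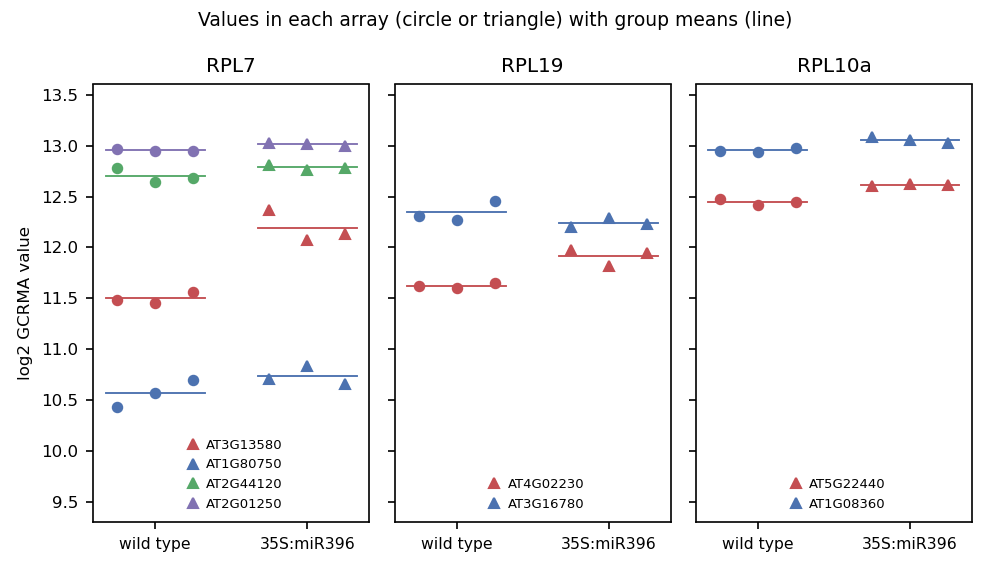
Log2 GCRMA values (y axis) in each wild-type (circles) and 35S:miR396 (triangles) array, with group means as lines. The panels hold the tested member genes of RPL7, RPL19 and RPL10a. AT3G13580 (0.69) and AT4G02230 (0.29) step up between the groups, while their paralogues, with differences from -0.10 to 0.17, did not pass the test; heights of different genes are not comparable.

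Some members could be seen only jointly or not at all. The neighbouring RPL6 genes AT1G74050 and AT1G74060 share a probe set with values of 12.19, 12.16 and 12.17 in wild type and 12.42, 12.26 and 12.34 in 35S:miR396. That joint signal was higher by 0.16 ± 0.05 (log2, SE; adjusted p = 0.0404), and which of the 2 genes it follows cannot be told. The RPL6 gene with a probe set of its own, AT1G18540, stood at -0.04. The probe set shared by AT1G33120 and AT1G33140 (RPL9) stood at 0.09, and those shared by AT1G09590 and AT1G09690 and by AT1G57860 and AT1G57660 (RPL21) at -0.06 and 0.10, with none of these 3 passing the test. AT3G51190 (RPL8, at the peptidyl transferase centre) was listed at 2.28 in all 6 arrays and AT3G48960 (RPL13) between 2.48 and 2.64, beside a lowest value of 2.25 on the array. These 2 genes were not tested, and no fold can be given for them. No member gene of RPL10, RPL11, RPL23, RPL24 or RPL27a had a probe set of its own or a shared one here.

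The other genes of the cytosolic ribosome were counted in the same way. Of 56 further large-subunit loci 23 were tested, of which 2 rose, 1 fell and 20 did not pass (13.0% called, median log2 fold change 0.00). AT2G19740 (RPL31, at the tunnel exit) rose by 0.26 ± 0.05 (log2, SE), from values of 11.13, 11.11 and 11.13 to 11.44, 11.43 and 11.28. AT5G02450 (RPL36) rose by 0.19 ± 0.06, and AT3G06700 (RPL29) was lower, at -0.15 ± 0.04 (adjusted p = 0.0474). Of 86 small-subunit loci 41 were tested, of which 10 rose, 2 fell and 29 did not pass (29.3% called, beside 25.0% of all tested probe sets; median 0.03). In the small subunit AT5G39850 (RPS9) rose 1.66-fold, from 8.01, 7.92 and 8.14 to 8.94, 8.59 and 8.76, and AT5G28060 (RPS24) rose by 0.25 ± 0.07. Without the filter, without the variance trend or without replicate 2 of wild type, the rising small-subunit genes numbered 2 and none of the 23 further large-subunit genes was called by limma (9, 2 and 5 of them at an unadjusted p under 0.05). With 1 array left out at a time, AT5G39850 was called in every fit, at 0.65 to 0.82, and AT2G19740 lost its call without replicate 1 or 2 of wild type. AT5G28060 kept its call only without replicate 2 of 35S:miR396, AT5G02450 kept its own only without replicate 1 of wild type, and AT3G06700 lost its call in all 6 fits. After a further quantile normalization AT5G28060 (adjusted p = 0.0754) and AT5G02450 (adjusted p = 0.0781) were not called. The differences between the lists were not tested.

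Few markers could check the tissue. Of 9 root meristem and stem cell niche markers 3 had a probe set, BBM, AT5G48940 (RCH1) and AGL42, and all 3 were above the filter in both groups, with wild-type means of 5.58, 8.19 and 6.36. All 3 also rose in 35S:miR396, by 1.5, 0.77 and 0.68 log2 units. The root hair markers EXPA7 and EXPA18 were at or near the lowest value in all arrays, between 2.25 and 2.38. Markers of endodermis, xylem, root cap and leaf had no listed probe set. In bulk samples a difference in the share of cells of a type and one in RNA per cell cannot be told apart, and the part of cell composition in the differences above was not tested.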

How the data were processed

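Per the submitters' processing notes, the authors made the deposited log2 values with GCRMA (version not given in the sources used here), which subtracts a sequence-dependent background, puts the arrays on 1 scale and combines the probes of a set. That the scale is log2 was read from the values (2.25 to 14.28). A change in total RNA per cell cannot be seen on such a scale. Total RNA was labelled with biotin from the 3' end, per the labels' protocols.

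Groups came from sample titles. Controls (64 probe sets) were left out, and 11364 probe sets passed the filter. They were fitted with limma 3.58.1 in R 4.3.3 (lmFit, eBayes with trend, no block), two-sided; the fit was tested on simulated data. SE is limma's moderated standard error. The number of arrays limits the precision.

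The platform annotation gives 1 gene for 13513 probe sets and several for 503. Loci came from a gene table of assembly TAIR10.1. Protein families follow the species' standard nomenclature; the gene table itself names a ribosomal protein for 7 of the 60 loci. Members, lists and tests were chosen with earlier results of these data known. Named genes were the called members with the 8 highest and 8 lowest fold changes, the genes of the 5 most and 2 least different paralogue pairs, and up to 3 called genes of each other ribosomal list; further members were named after their values were seen. Some genes that this rule took are counted but not reported or drawn here. Paralogue ratios were tested with scipy 1.17.1. Other filters, variance priors, scalings, array weights, a replicate block and leaving out each array were tried.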

Additional observations from a re-analysis of the deposited data

How the results depend on the processing

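Of the 20 genes taken by the naming rule none changed the sign of a call under any alternative. With no filter on dim probe sets 941 probe sets were called over the array, and 3 members were called higher and 0 lower. At an unadjusted p under 0.05 there were 12 members, against 13 in the fit as reported, with no share over all probe sets beside these counts. Without a variance trend 3 were called higher and 0 lower, with array weights 13 higher and 2 lower (4749 probe sets called), and with a further quantile normalization 2 lower, with a median member log2 fold change of 3.34e-06. Leaving out 1 array at a time gave 1052 to 3813 called probe sets, 3 to 8 members higher, 0 lower in every such fit, and medians of 0.0351 to 0.055. Without replicate 2 of wild type 3 members were higher, and the lone call for a fall needs all 6 arrays. Separate paralogue pairs numbered 11 to 17, the most without replicate 2 of 35S:miR396. With 1 array left out this count cannot fall below 11, since separate groups stay separate. It therefore does not show how stable the pairs are. With the replicate block 7 members were higher and 0 lower, 2844 probe sets were called and 16 pairs moved 1 way in every numbered pair of arrays. Same-numbered arrays share only a number: the correlations of their deviations were 0.4, -0.092 and 0.139 for numbers 1, 2 and 3. No member had several probe sets of its own, so the choice among them changed nothing. The causes of these changes were not tested.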
